A study of Mus musculus with 2 samples.

Results

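Among the sorted hypothalamic microglia of these young mice, 1399 of 20268 cells yielded at least 500 and fewer than 1000 UMIs, where a UMI (unique molecular identifier) stands for 1 captured RNA molecule. They were chosen by that depth, by a minimum of 300 detected genes and by a mitochondrial share no higher than 10%, and are called shallow cells here. Those 3 measures therefore describe the choice and are no finding. The plasma-negative library held 796 of them and the plasma-positive library 603. Each was compared with the cells of its own library that had at least 2000 UMIs, called deep cells, of which there were 8249 and 9109. The 815 and 650 kept cells between those ranges entered neither class.

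Both groups came from wild-type animals, and both had received plasma protein carrying a dye 20 hours before the cells were taken. A fluorescence sort then split the microglia into cells without the dye (plasma-negative) and cells with it (plasma-positive). Several animals were pooled, and each sort gave 1 library from a droplet method that counts molecules near the 3′ end. With 1 library per sort there is no replicate error to test against, so no p-value was computed, and the 2 libraries are different sorts rather than replicates. Every 95% interval covers counting error only. For each gene, the size of the difference between shallow and deep cells is therefore given in each library separately.

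Microglia are the resident macrophages of the brain, and they devote much of their cytoplasmic messenger RNA to secreted and surface proteins such as cystatin C (Cst3) and complement C1q. Not all RNA of a cell sits in the cytoplasm. Malat1, a long non-coding RNA, stays in the nucleus at the speckles where splicing factors are stored, while messenger RNAs for ribosomal proteins are short, abundant and held in the cytoplasm, and the mitochondrially encoded messenger RNAs are made and kept inside mitochondria.

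The plasma-negative library held 34549522 UMIs in 9878 cells and the plasma-positive library 42006454 UMIs in 10390 cells, with lowest totals of 504 and 501 UMIs. The shallow cells made up 8.07% (Clopper-Pearson 95% interval 7.54 to 8.63) of the 9860 kept plasma-negative cells and 5.82% (5.38 to 6.29) of the 10362 kept plasma-positive cells. The sort, the cell calling and the deeper plasma-positive library can each set these shares, and their parts in the gap cannot be told apart. Their sums were 592827 and 448476 UMIs, against 32713723 and 40561165 UMIs in the deep cells. The median shallow cell of the plasma-negative sort yielded 739 UMIs from 491.5 genes, and the median deep cell 3506 UMIs from 1680 genes. In the plasma-positive sort these medians were 747 UMIs from 494 genes and 3970 UMIs from 1816 genes. Fewer RNA molecules in a cell and fewer of them captured cannot be told apart from these counts.

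The label of the sort was checked against 11 microglia markers (among them Cx3cr1, P2ry12, Tmem119, Csf1r, C1qa, C1qb, C1qc, Sall1, Fcrls and Siglech). At least 4 of them had a UMI in 793 of 796 plasma-negative shallow cells (99.6%, 98.9 to 99.9) and in 600 of 603 plasma-positive ones (99.5%, 98.6 to 99.9). With every cell thinned at random to 500 UMIs, the median was 7 markers in shallow cells and 8 in deep cells of both libraries. Free RNA in the droplets also gives such UMIs, no cell type lacking these genes was set apart in which to measure it, and its part was not tested. Markers of other cell types were scarce: no erythroid marker had a UMI in a shallow cell, and the T or NK cell list had 0 and 2 UMIs in the plasma-negative and plasma-positive shallow cells. A count of 0 allows up to 5.06 and 6.69 CPM (UMIs of a gene or list per 1000000 UMIs of the cells summed), the level of 3 UMIs. The lists that did collect UMIs rested mainly on single genes, such as Stab1 with 202 of the 204 border-associated macrophage UMIs and Csf3r with 186 of the 188 neutrophil UMIs of the plasma-negative shallow cells. Stab1 stood at 341 CPM in shallow and 171 CPM in deep plasma-negative cells, and at 381 and 178 CPM in plasma-positive cells, while 8 of the 10 markers of its list had no UMI in the shallow cells of each library, Mrc1 having 2 in the plasma-negative and Cbr2 1 in the plasma-positive one. The part of such cells in the results was not tested. No shallow cell held 3 or more markers of any of 13 other cell types, and 1 plasma-positive cell held 3 neuropeptides.

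The RNA of the shallow cells was made up differently from that of the deep cells. Malat1 took a median of 16.7% of a plasma-negative shallow cell's UMIs (5th to 95th percentile 7.84 to 25.03) against 6.30% (3.02 to 10.1) in deep cells. In the plasma-positive library the medians were 15.7% (2.05 to 25.1) and 5.21% (2.19 to 8.80). Ribosomal protein transcripts went the other way, with 1.75% (0.898 to 3.61) of a plasma-negative shallow cell's UMIs against 9.37% (5.80 to 15.1) in deep cells. The plasma-positive medians were 1.90% (0.899 to 7.16) and 10.1% (6.37 to 17.5). These ranges of the 2 classes overlapped for Malat1 in both libraries and for ribosomal protein transcripts in the plasma-positive library, and did not overlap for ribosomal protein transcripts in the plasma-negative library.

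Thinning every cell to 500 UMIs left this difference in place. Malat1 was above the 95th percentile of thinned deep cells in 694 plasma-negative shallow cells (87.2%) and in 526 plasma-positive ones (87.2%). Ribosomal protein transcripts were below the deep cells' 5th percentile in 771 (96.9%) and 568 (94.2%). Cst3, which encodes a secreted protease inhibitor, was below that mark in 621 (78.0%) and 466 (77.3%). The summed transcripts of 20 microglial identity genes did so in 673 (84.5%) and 484 (80.3%), and those of 20 splicing and speckle proteins were above the 95th percentile in 360 (45.2%) and 289 (47.9%). The mitochondrial share, which the rule capped at 10%, spread in both directions, given as a description only. It was above the deep cells' 95th percentile in 388 (48.7%) and 252 (41.8%) shallow cells. It was below the deep cells' 5th percentile in 96 (12.1%) and 60 (9.95%). At 500 UMIs a plasma-negative shallow cell showed a median of 351 genes (interquartile range 336 to 365.25) and a deep cell 365 (352 to 376). The plasma-positive medians were 353 (339 to 368) and 364 (351 to 376), so these ranges overlapped, and the minimum of 300 genes in the rule touches the shallow values.

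**Figure D1:**
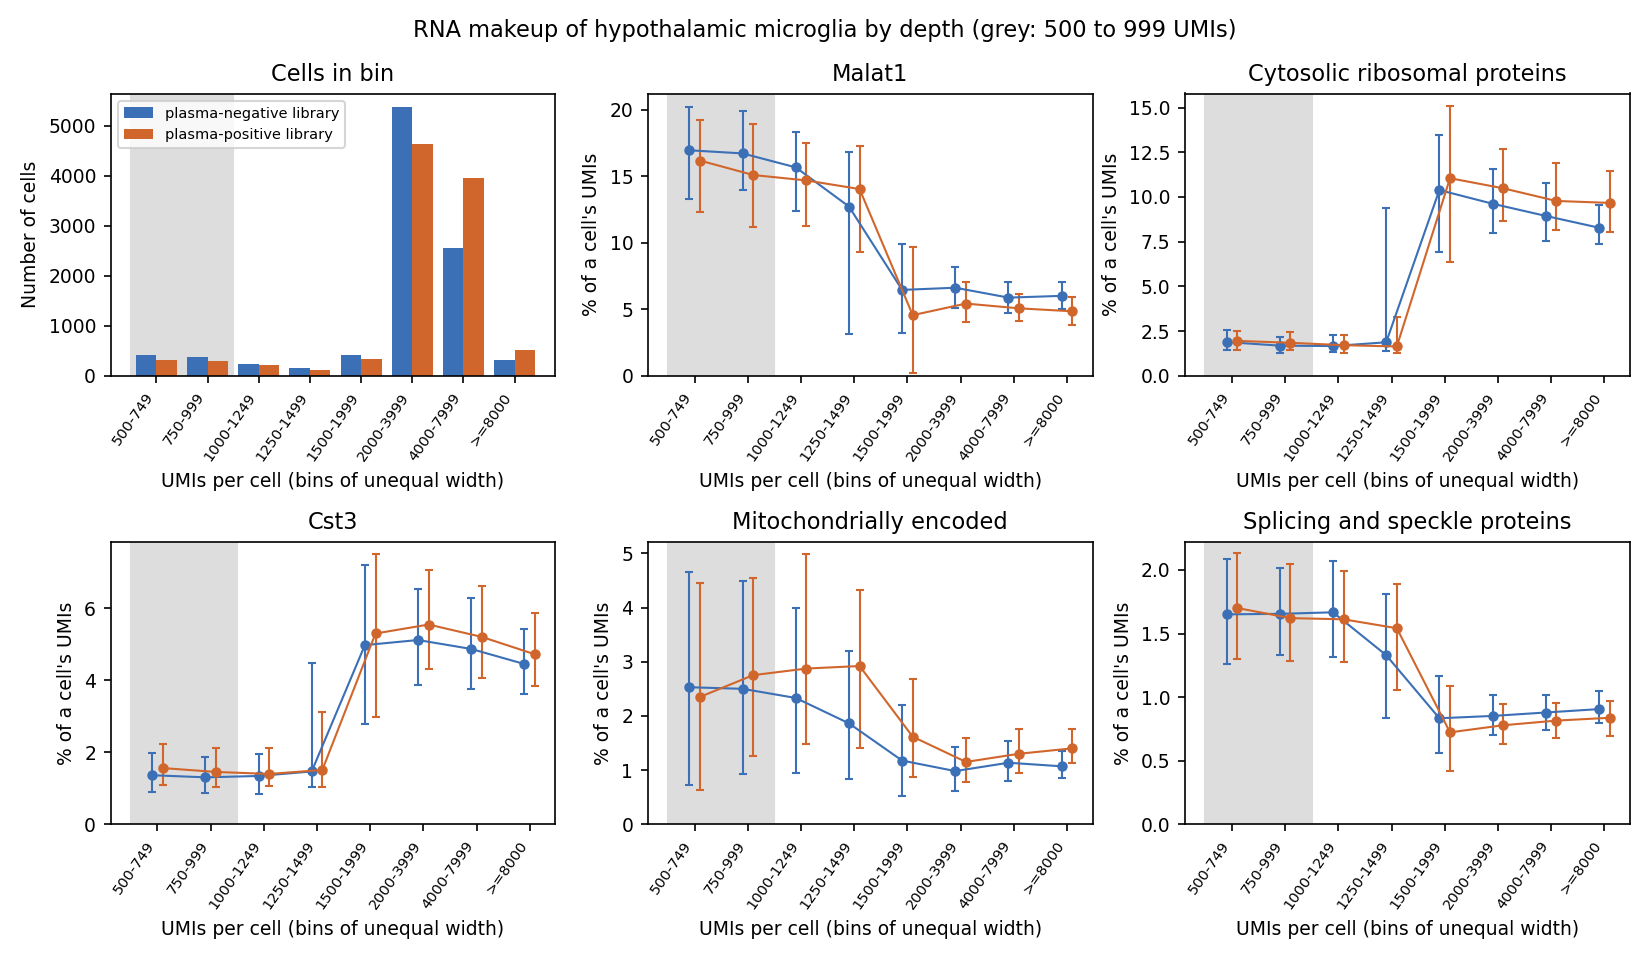
Cells per depth bin, and the median percentage of a cell's UMIs on 5 gene groups, by UMIs per cell in bins of unequal width; bars are interquartile ranges over cells, and grey marks cells of at least 500 and fewer than 1000 UMIs. Medians of Malat1 between 12.7% and 17.0% below 1500 UMIs give way to 4.56% to 6.62% from 1500 UMIs on.

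The makeup of shallow cells did not end at the upper limit of 1000 UMIs. In the plasma-negative library the median ribosomal protein share was 1.88% from 500 UMIs, 1.68% from 750, 1.66% from 1000 and 1.87% from 1250 up to 1500 UMIs, and then 10.4% between 1500 and 2000 UMIs. The plasma-positive medians were 1.95%, 1.84%, 1.71% and 1.64%, and then 11.05%. The step thus lay near 1500 UMIs in both libraries, above the edge set by the rule. Just inside that edge, 138 plasma-negative cells from 900 to under 1000 UMIs had a median Malat1 share of 16.1%, and just outside it 104 cells from 1000 to under 1100 UMIs had 15.8%. In the plasma-positive library 106 and 93 such cells had 14.2% and 15.4%. Between 1250 and 1500 UMIs the plasma-negative cells spanned both levels, with an interquartile range of ribosomal protein transcripts from 1.39% to 9.36%.

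**Figure D2:**
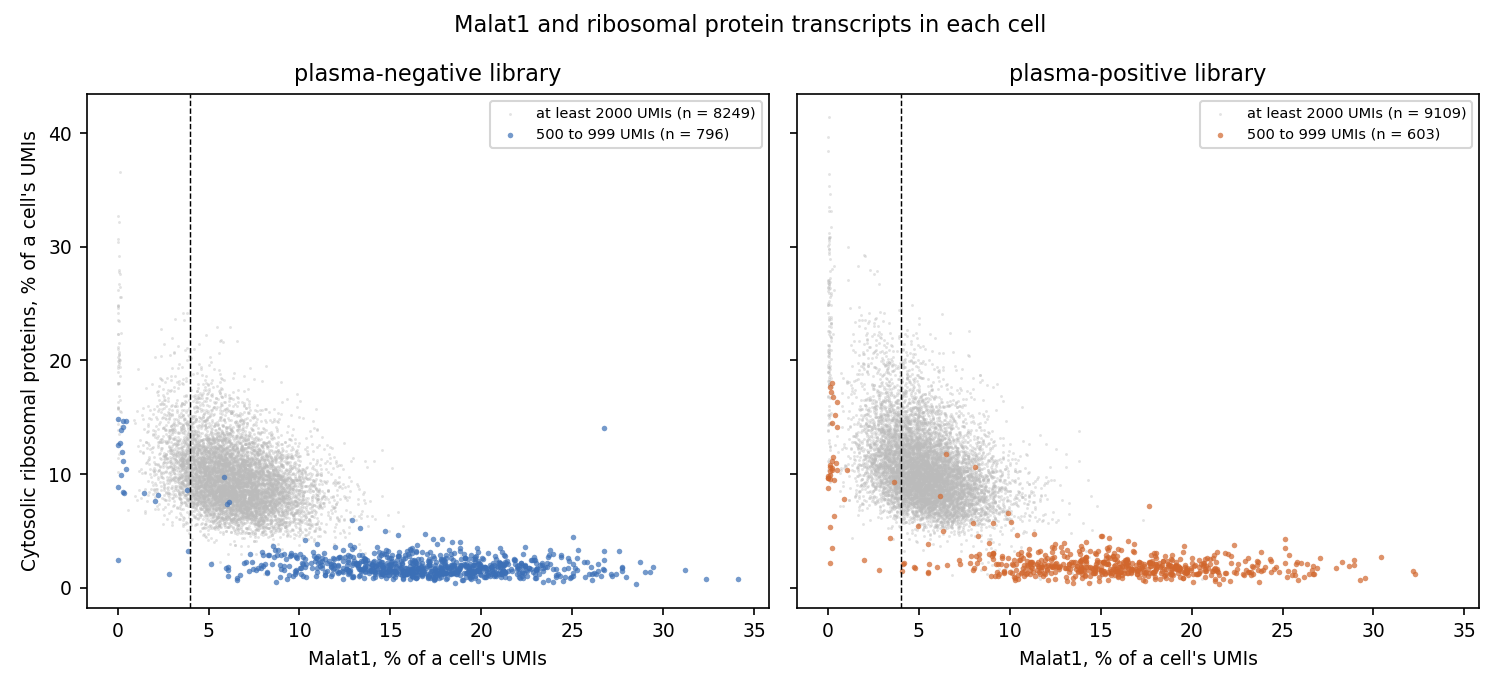
Each point is a cell, placed by the percentage of its UMIs on Malat1 and on cytosolic ribosomal protein genes; the dashed line marks 4% Malat1. Most shallow cells (796 and 603 cells, coloured) form a band of high Malat1 and low ribosomal protein share below the deep cells (8249 and 9109 cells, grey), and 21 and 34 shallow cells lie left of the line.

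The choice by UMIs fixed in advance that a deep cell held more UMIs in total. Counted per cell, it held more of almost everything, in very unequal proportions. Mean totals were 3966 UMIs in deep and 744.8 in shallow plasma-negative cells, a factor of 5.32, and 4453 and 743.7 UMIs in plasma-positive cells, a factor of 5.99. Malat1 differed by only 2.01 and 2.06 times, at 249 against 124 UMIs per plasma-negative cell and 232 against 113 per plasma-positive cell. Mitochondrially encoded transcripts, whose share the rule capped, differed by 2.10 and 2.73 times. Ribosomal protein transcripts differed by 24.3 and 25.2 times, at 379 against 15.6 and 472 against 18.7 UMIs per cell. Transcripts of Tmsb4x, which encodes the actin-binding peptide thymosin beta-4, differed by 28.1 and 28.3 times. Among the 2115 genes compared below, 12 had more UMIs per cell in shallow than in deep cells of both libraries. They are the 12 with the highest ratios described below, and they entered that comparison only through the shallow cells. Ttr, among them, rested mainly on 1 cell in each library. Gm43221, a non-coding gene, averaged 0.514 UMIs per shallow and 0.180 per deep cell in the plasma-negative library, and 0.512 and 0.158 in the plasma-positive library.

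Shares of summed UMIs were then compared gene by gene, as CPM of each class's sum. A gene was compared if it reached 100 CPM in either class of each library, and called higher or lower if its share differed at least 1.5-fold the same way in both libraries. A gene below that minimum in 1 class entered only through the class where its share was larger, which favours calls among scarce genes. Of 2115 genes, 597 were higher in shallow cells (28.2%) and 591 were lower (27.9%). At 2-fold, 231 (10.9%) were higher and 352 (16.6%) lower. No gene was called in opposite directions by the 2 libraries, 264 passed 1.5-fold in 1 library only, and 1994 (94.3%) had the same sign in both. Across genes the log2 ratios of the libraries had a Pearson r of 0.963, a description only, since genes are not independent replicates. The median log2 ratio was 0.06 and 0.08 in the plasma-negative and plasma-positive library. The scaling matters: TMM factors moved every log2 ratio by -0.30 and -0.36, which gave 276 genes higher and 859 lower. Median-of-ratios factors moved every log2 ratio by -0.23 and -0.26, which gave 336 and 789. The cause of these shifts was not tested. A positive ratio smaller than the size of those shifts therefore changes sign with the scaling.

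**Figure D3:**
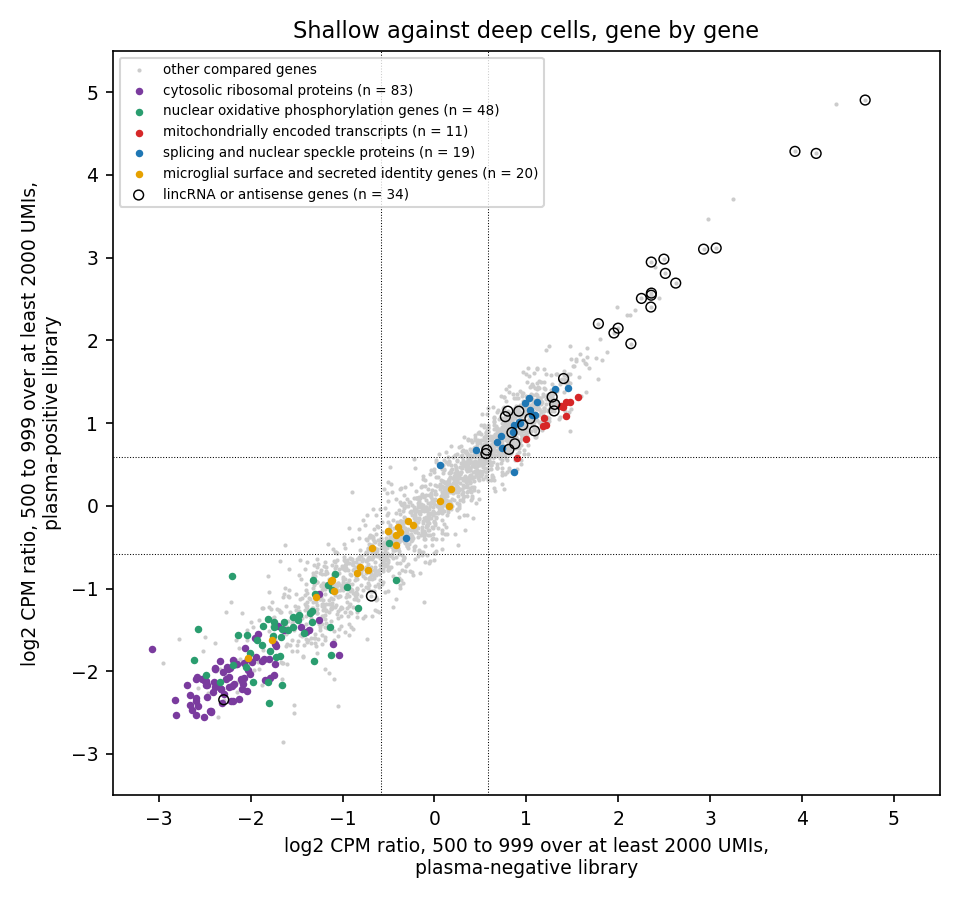
The log2 CPM ratio of shallow over deep cells for genes at 100 CPM, in the plasma-negative (x) and plasma-positive library (y); dotted lines mark 1.5-fold, and Ttr lies beyond the axes. Points follow the diagonal, with the 83 ribosomal protein genes at the lower left and most of the 34 lincRNA and antisense genes at the upper right.

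Of the 12 genes with the highest ratios, 8 were non-coding. All 12 were below 100 CPM in the deep cells of both libraries, so they entered the comparison only through the shallow cells. Gm7480, an antisense gene on chromosome 14 (22032086 to 22036103, minus strand), stood at 192 and 7.46 CPM in shallow and deep plasma-negative cells and at 214 and 7.15 CPM in plasma-positive cells, a log2 ratio of 4.69 and 4.90. Its UMIs came from 91 and 78 shallow cells. Gm43221, an antisense gene on chromosome 3 (109000024 to 109002094, plus strand), stood at 690 against 45.5 CPM and at 689 against 35.4 CPM, a log2 ratio of 3.92 (3.76 to 4.08) and 4.28 (4.10 to 4.46). It had a UMI in 281 of 796 and 201 of 603 shallow cells. The other non-coding genes were Gm48708, AY036118, Gm26522, Gm26733, Gm10848 and Gm45509, with log2 ratios of 2.50 to 4.26. The protein-coding genes among the 12 were Fam196b (4.38 and 4.85), Uchl4 (3.25 and 3.71), Leng9 (2.98 and 3.47) and Ttr, which is described with single cells at the end. Of these 12 genes, 5 lie on the strand opposite a gene of at least 100 CPM. They are Gm43221 (opposite Fam102b), AY036118 (Gm42418), Fam196b (Dock2), Gm26522 (Ctsc) and Leng9 (Leng8). The use of strand in counting was not given in the sources used here, so reads of such pairs may not be told apart. Coordinates and classes are from GENCODE M21 on GRCm38, which may not be the annotation the authors used.

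The 12 genes with the lowest ratios were 11 ribosomal protein genes and Ccl12, a chemokine that attracts monocytes. Rps23 stood at 192 CPM in shallow and 1351 CPM in deep plasma-negative cells, and at 261 and 1507 CPM in plasma-positive cells, a log2 ratio of -2.81 and -2.53. Ccl12 stood at 35.4 and 181 CPM and at 66.9 and 392 CPM, a log2 ratio of -2.35 (-3.04 to -1.74) and -2.55 (-3.12 to -2.04). It rested on 21 and 30 shallow UMIs. Being below 100 CPM in the shallow cells of both libraries, Ccl12 entered the comparison only through the deep cells. Of the 100 lowest genes, 66 were ribosomal protein genes, most of which have processed pseudogenes that can share reads with them. Outside that list, chosen after the values were seen, the lowest after Ccl12 were Gm10076, Cd52 (a small surface glycoprotein of leukocytes), Tmsb4x and Tpt1. Cd52 had log2 ratios of -2.47 and -2.27.

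Gene lists were read at a lower minimum of 20 CPM, at which 6994 genes were compared, 1631 (23.3%) were higher and 1213 (17.3%) lower, with a median log2 ratio of 0.14 and 0.17. Here too, a gene below the minimum in 1 class entered only through the other class, which favours calls among scarce genes. Nuclear RNA species were higher. All 4 compared nuclear long non-coding RNAs of 14 listed were called higher, with medians of 1.22 and 1.06. Another 7 were below the minimum and 3 were not found under the names listed. Pvt1, among the 4, passed the minimum only through the shallow cells, at 35.4 against 16.0 CPM and 29.0 against 15.0 CPM. Malat1, on chromosome 19 (5795690 to 5802672, minus strand), had a log2 ratio of 1.41 (1.40 to 1.41) and 1.54 (1.53 to 1.55), from 98678 and 67960 shallow UMIs. Neat1, the scaffold of nuclear paraspeckles, stood at 145 against 58.8 CPM and 111 against 50.4 CPM. Kcnq1ot1, an imprinted non-coding RNA that silences neighbouring genes, stood at 592 against 304 CPM and 540 against 274 CPM.

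Transcripts of splicing and speckle proteins were likewise higher, with 15 of 20 called higher, none lower, and medians of 0.89 and 0.99. Under TMM scaling the medians were 0.60 and 0.63. Son, a large speckle scaffold protein, stood at 2820 CPM in shallow and 1136 CPM in deep plasma-negative cells and at 2778 and 1044 CPM in plasma-positive cells. Clk1, a kinase that phosphorylates SR splicing factors, had the highest ratio of the list, 1.45 (1.32 to 1.58) and 1.43 (1.27 to 1.58). Srsf3, an SR splicing factor, did not follow, at -0.31 and -0.39.

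Respiratory chain subunits are encoded partly in mitochondria and partly in the nucleus. The mitochondrial share was used to choose the cells, so the values of the mitochondrially encoded part are a description only. Of 13 mitochondrially encoded transcripts, 11 were called higher and none lower, with medians of 1.21 and 1.06. mt-Co3, a subunit of cytochrome c oxidase, stood at 5718 CPM in shallow and 1939 CPM in deep plasma-negative cells and at 5773 and 2328 CPM in plasma-positive cells. The medians were 0.68 and 0.54 with the mitochondrial limit set at 5%, since the limit cuts this list directly. Of 75 nuclear oxidative phosphorylation genes compared, 62 were called lower and none higher, with medians of -1.48 and -1.41. Cox4i1, a nuclear subunit of the same oxidase, stood at 128 against 405 CPM and at 156 against 439 CPM. Sdha, the flavoprotein of succinate dehydrogenase, lay near 0 with log2 ratios of 0.12 and -0.28.

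Ribosomal protein genes were the list with the lowest medians. All 83 compared ribosomal protein genes of 86 listed were called lower, with medians of -2.23 and -2.09 and a highest member of -1.04 and -1.07. Their summed share was 2.09% (2.06 to 2.13) of shallow and 9.56% of deep plasma-negative UMIs, and 2.52% (2.47 to 2.56) and 10.6% in plasma-positive cells. Rps29, among the most abundant, stood at 840 against 5079 CPM and at 1113 against 5693 CPM. Of 19 elongation and initiation factors, 13 were called lower and none higher. Eef1a1, which brings aminoacyl-tRNA to the ribosome, stood at 683 against 2135 CPM and at 644 against 2416 CPM. Tpt1, encoding translationally controlled tumour protein, was lowest in the list, at -2.58 and -2.21, while Eif4a2, an RNA helicase of initiation, had 0.44 and 0.66.

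The actin cytoskeleton genes were also lower, with 13 of 15 called and medians of -1.21 and -1.12. Tmsb4x stood at 1962 CPM in shallow and 10370 CPM in deep plasma-negative cells and at 2511 and 11865 CPM in plasma-positive cells. Actb, encoding beta-actin, had log2 ratios of -1.60 and -1.67. Coro1a, a regulator of actin branching in leukocytes, was nearest to 0 at -0.35 and -0.39.

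**Figure D4:**
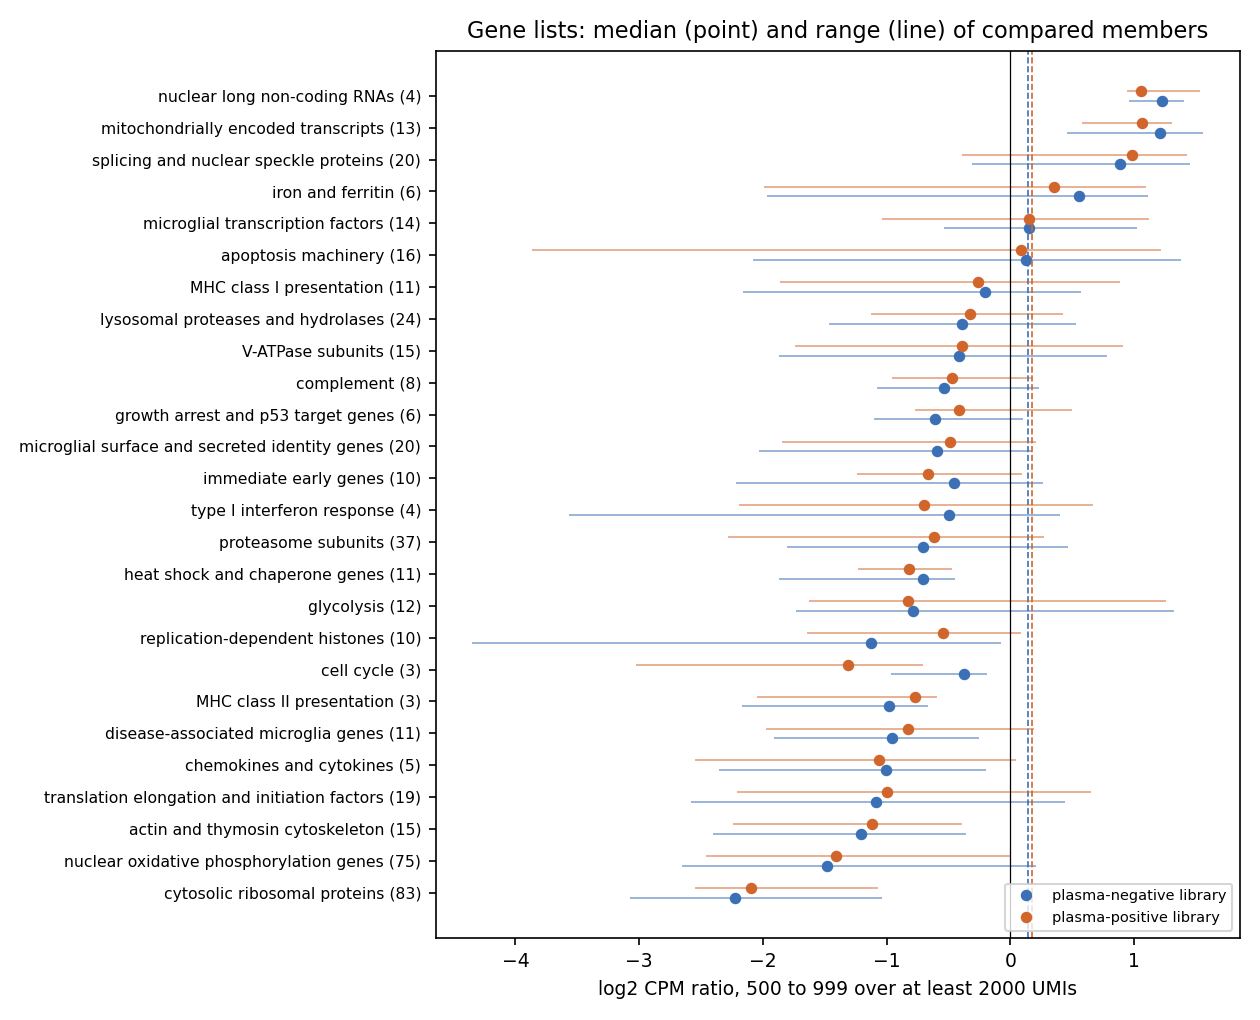
Median (point) and range (line) of the log2 CPM ratio of shallow over deep cells for the compared members of 26 gene lists, in each library; the number of compared members is in brackets, and dashed lines are the medians of all 6994 genes at 20 CPM. Nuclear non-coding RNAs, mitochondrially encoded transcripts and splicing proteins lie above 0.8 in both libraries, and ribosomal protein genes lie lowest.

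Of the 20 microglial surface and secreted identity genes, 9 were called lower, none higher and 11 neither, with medians of -0.60 and -0.49. Tyrobp, the adaptor of Trem2, was lowest: it stood at 666 CPM in shallow and 2727 CPM in deep plasma-negative cells and at 845 and 3038 CPM in plasma-positive cells, log2 ratios of -2.03 and -1.85. Cst3 stood at 15165 against 51729 CPM and at 17930 against 55070 CPM, log2 ratios of -1.77 and -1.62. P2ry12, the purine receptor of microglial processes, had log2 ratios of -1.29 and -1.10, and Cx3cr1, the fractalkine receptor, had -0.72 and -0.77. Csf1r, the receptor that microglia need for survival, had the highest ratio, 0.18 and 0.21, and TMM scaling turns its sign.

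Of 14 transcription factors of microglia, 3 were called higher, none lower and 11 neither. Their medians were 0.15 and 0.15 by total UMIs but -0.15 and -0.21 under TMM scaling, so the sign of the list depends on the scaling, and its 21.4% called higher is near the 23.3% of all genes. Mef2a stood at 2365 CPM in shallow and 1159 CPM in deep plasma-negative cells and at 2261 and 1040 CPM in plasma-positive cells. Mef2c had log2 ratios of 0.67 and 0.73, and Smad3, which relays TGF-beta signals, 0.70 and 0.89. Spi1, encoding PU.1, had -0.54 and -1.04.

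C1qa, a subunit of the complement initiator C1q, stood at 6169 CPM in shallow and 10363 CPM in deep plasma-negative cells and at 6098 and 10163 CPM in plasma-positive cells. C1qb and C1qc had log2 ratios of -0.96 and -0.91 in the plasma-negative library and -0.96 and -0.84 in the plasma-positive library. These were the 3 of 8 compared complement genes called lower.

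Of 24 lysosomal proteases and hydrolases, 5 were called lower (20.8%) and none higher, a share near the 17.3% of all genes. Ctss, encoding cathepsin S, stood at 3633 against 7754 CPM and at 4230 against 8650 CPM, and Npc2, a cholesterol carrier of the lysosome, had log2 ratios of -1.46 and -1.13. Ctsd, encoding cathepsin D, was not called at -0.40 and -0.34, and Man2b1, a lysosomal mannosidase, had 0.53 and 0.42. Among 15 V-ATPase subunits 4 were called lower and 1 higher: Atp6v1f, a small peripheral subunit, had -1.87 and -1.74, and Atp6v0a1, a large membrane subunit, had 0.78 and 0.91. Of 11 MHC class I genes, 4 were called lower. B2m, the light chain, stood at 321 against 1432 CPM and at 448 against 1633 CPM, while the peptide transporter genes Tap1 and Tap2 had 0.55 and 0.57 in the plasma-negative library and 0.89 and 0.68 in the plasma-positive library. The class I median in the plasma-positive library was -0.26 for all shallow cells and 0.07 for those of fewer than 750 UMIs. All 3 compared MHC class II genes of 7 listed were called lower, with H2-DMa, which overlaps a gene on the opposite strand, at -0.66 and -0.59. Cd74, 1 of the 3, passed the minimum of 20 CPM only through the deep cells. It stood at 6.75 against 30.3 CPM and at 8.92 against 36.8 CPM, on 4 shallow UMIs in each library.

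No member of the disease-associated, chaperone, immediate early or interferon lists was called higher. Of 11 compared disease-associated microglia genes, 6 were called lower, among them Fth1 (ferritin heavy chain) at 771 against 2890 CPM and 876 against 3452 CPM. Of 11 heat shock and chaperone genes, 7 were called lower, with Hspa5, the chaperone of the endoplasmic reticulum, not called at -0.44 and -0.47. Of 10 immediate early genes, 4 were called lower, with Rhob at -0.66 and -0.88 and Jund at -1.11 and -1.24. Atf3, also called lower in that list, passed the minimum of 20 CPM only through the deep cells, on 3 and 5 shallow UMIs. The interferon list had 4 of 16 genes compared and 2 called lower, Ifi27l2a and Bst2. Ifi27l2a had 1 and 9 shallow UMIs. In the plasma-negative library it passed the minimum only through the deep cells, at 1.69 against 20.1 CPM. Bst2, encoding tetherin, stood at 72.5 against 179 CPM and at 73.6 against 222 CPM. The apoptosis list had 3 called higher and 2 lower of 16, with medians of 0.13 and 0.09 that became -0.17 and -0.27 under TMM scaling. Its 18.8% called higher is near the 23.3% of all genes. Bcl2, an inhibitor of apoptosis, stood at 42.2 against 16.2 CPM and 33.4 against 14.5 CPM. Bcl2 and Casp9, both called higher, passed the minimum of 20 CPM only through the shallow cells. They had 25 and 15 and 14 and 15 shallow UMIs. Bak1, called lower, passed it only through the deep cells. Cycs, encoding cytochrome c, stood at 21.9 against 92.5 CPM in plasma-negative cells. In plasma-positive cells Cycs rested on 3 shallow UMIs, a log2 ratio of -3.86 (-6.14 to -2.31). Of 6 growth arrest and p53 target genes compared, 1 was called, Btg2, at -0.64 and -0.77. This 16.7% called lower is near the 17.3% of all genes. Cdkn1a, the cell cycle inhibitor p21, did not reach 20 CPM in both libraries and had 3 and 2 shallow UMIs, with log2 ratios of -2.49 (-4.77 to -0.94) and -2.07 (-5.12 to -0.21).

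Of 12 glycolysis genes, 7 were called lower and 1 higher. Hk2, a hexokinase that phosphorylates glucose, stood at 1226 CPM in shallow and 489 CPM in deep plasma-negative cells and at 1119 and 468 CPM in plasma-positive cells. Gapdh had log2 ratios of -1.68 and -1.29 and Pgam1 -1.73 and -1.62. The list's summed share was 0.183% of shallow against 0.180% of deep plasma-negative UMIs, with Hk2 as its most abundant member. Of 6 iron genes, the ferritin chains Fth1 and Ftl1 were called lower, at -1.91 and -1.98 and at -1.96 and -1.99. Ireb2, which binds the iron-responsive element of ferritin messages, was called higher at 1.11 and 1.10. The iron list's median of 0.35 in the plasma-positive library became -0.01 under TMM scaling. Of 37 proteasome genes, 17 were called lower and none higher. Of the cell cycle genes, 3 of 18 were compared and 1 (Stmn1) was called lower, and of the 67 replication-dependent histone genes 10 were compared and 4 called lower. Of 5 compared chemokine and cytokine genes 2 were called lower, Ccl12 and Ccl4, the latter on 6 and 7 shallow UMIs.

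Gene class and length went with the ratio. Of 19 lincRNA genes compared at 100 CPM, 17 were called higher, and of 15 antisense genes 13 were. Genes such as Gm7480 and Gm43221 entered only through the shallow cells, so the minimum favours these counts of higher genes. Of 2080 protein-coding genes, 567 were higher and 589 lower. Among 1986 protein-coding genes without the ribosomal protein and mitochondrial genes, those in the shortest quartile of exonic length (415 to 3044 bases) were called higher in 5.23% and lower in 65.0% of cases. The next quartiles had 17.1% higher and 27.8% lower, then 32.3% and 8.27%. In the longest quartile (9018 to 41155 bases), 57.5% were higher and 0.805% lower. Spearman's rho between exonic length and the log2 ratio was 0.65 and 0.66, and for the genomic span, introns included, 0.51 and 0.52, given as descriptions since genes share libraries and base composition. The lists above differ in length too, and the part of length in their ratios was not tested.

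Within the shallow cells, plasma-positive and plasma-negative libraries were then compared. With 1987 genes compared at 100 CPM in either library, 4 were at least 2-fold higher in the plasma-positive library (0.201%) and 4 at least 2-fold lower (0.201%). In deep cells the counts were 2 of 1767 (0.113%) and 0. Apoe, the lipid carrier apolipoprotein E, stood at 125 CPM (74 UMIs in 50 cells) in plasma-negative and 1329 CPM (596 UMIs in 121 cells) in plasma-positive shallow cells. This was a 10.6-fold difference, with a log2 ratio of 3.41 (3.06 to 3.78). Deep cells stood at 172 and 1188 CPM, a log2 ratio of 2.79 (2.75 to 2.83). A single plasma-positive shallow cell held 70 of the 596 Apoe UMIs. Over the 20 alternatives tried the log2 ratio of Apoe in shallow cells ranged from 2.88 to 3.57, and with a minimum of 200 CPM it was the only gene past 2-fold.

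**Figure D5:**
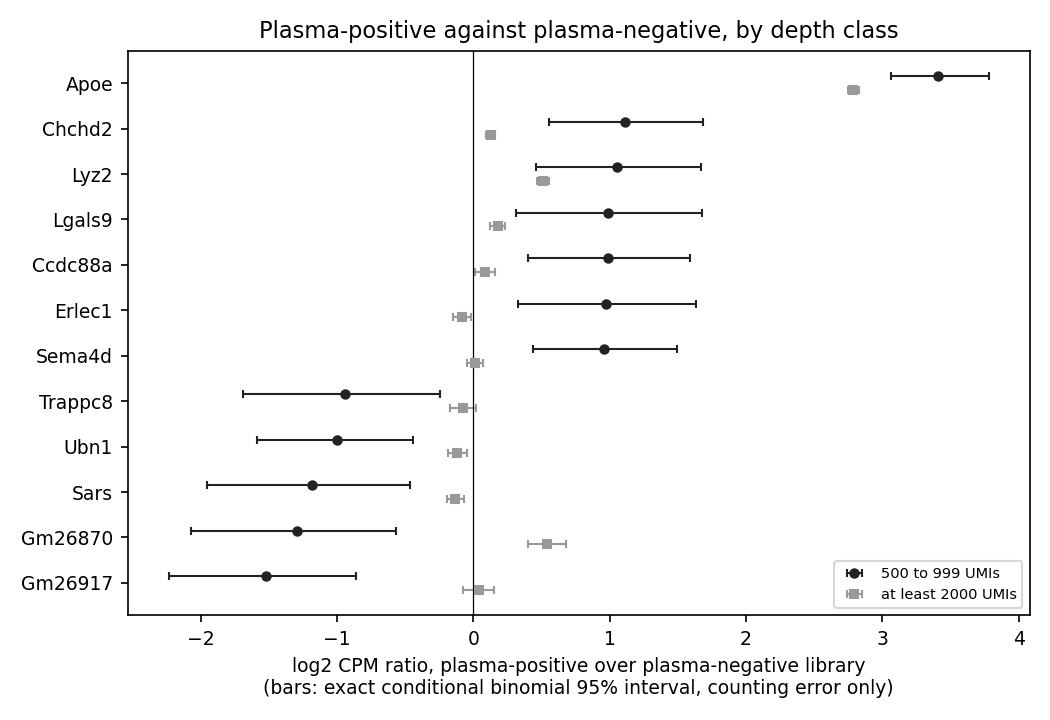
The log2 CPM ratio of the plasma-positive over the plasma-negative library in shallow and in deep cells, for the genes with the highest and lowest ratios in shallow cells; bars are exact 95% intervals for counting error, and Oxt, at 0 UMIs in plasma-negative shallow cells, is not drawn. Apoe stands at 3.41 and 2.79, and the other genes lie between -1.52 and 1.11 in shallow cells.

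The other genes past 2-fold were supported by far fewer UMIs. Chchd2, a mitochondrial intermembrane protein, had 44 and 72 UMIs (1.11, 0.55 to 1.69) and 0.13 in deep cells. Lyz2, the lysozyme of myeloid cells, had 40 and 63 UMIs (1.06, 0.46 to 1.67) and 0.51 in deep cells. Ccdc88a, Lgals9, Erlec1 and Sema4d followed just under 2-fold, at 0.96 to 0.99. Oxt, encoding oxytocin, had 0 and 75 UMIs, of which 70 sat in 1 cell. Without the shallow cells under 4% Malat1, Chchd2 (0.93) and Lyz2 (0.99) were no longer past 2-fold, Oxt no longer reached 100 CPM, and Ccdc88a and Lgals9 passed 2-fold. On the lower side, Sars, the seryl-tRNA synthetase, had 66 and 22 UMIs (-1.18, -1.95 to -0.47), and Ubn1, a histone chaperone subunit, 98 and 37 UMIs (-1.00, -1.59 to -0.44). Gm26917 had 91 and 24 UMIs, with 30 of the 91 in 1 cell, and Gm26870 had 68 and 21 UMIs, with 31 of the 68 in 1 cell. With a mitochondrial limit of 5%, the log2 ratio of Gm26870 was 0.14. The interferon list as a sum was 2.09-fold higher in the plasma-positive library among shallow cells and 1.81-fold among deep cells, from 140 and 221 shallow UMIs.

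A minority of shallow cells did not have the high-Malat1, low-ribosomal-protein makeup. By a threshold chosen after the data were seen, Malat1 took under 4% of UMIs in 21 plasma-negative shallow cells (2.64%) and 34 plasma-positive ones (5.64%), and 15 and 29 of these were under 1%. Only 9 and 14 shallow cells lay between 2% and 6%. In the low-Malat1 cells ribosomal protein transcripts made up 10.0% and 10.2% of UMIs, against 1.88% and 2.01% in the other shallow cells and 9.56% and 10.6% in deep cells. Cst3 stood at 4.11% and 4.17%, the actin list at 2.58% and 2.50%, and the splicing list at 0.776% and 0.613%. Each was nearer to the deep cells as a whole than to the other shallow cells. Deep cells under 4% Malat1 numbered 1020 (12.4%) and 2242 (24.6%). Their Cst3 share was 6.44% and 6.33%, above that of the low-Malat1 shallow cells. Their actin share (2.36% and 2.52%) and splicing share (0.693% and 0.669%) were close to those of the low-Malat1 shallow cells. Under 1% Malat1, ribosomal protein transcripts took 11.44% and 11.04% of shallow against 20.43% and 20.35% of deep UMIs. Cst3 there took 4.54% and 4.32% against 8.70% and 6.81%. Without the low-Malat1 cells, 630 genes were called higher and 610 lower in shallow cells.

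The shallow cells were also split by their mitochondrial share, a measure that the rule used. The median Malat1 share was 18.0% in the 159 plasma-negative cells with under 0.5% mitochondrial UMIs, and 16.8%, 17.3% and 16.1% in the 183, 210 and 244 cells at 0.5% to 2%, 2% to 4% and 4% to 10%. Ribosomal protein transcripts took medians of 1.68%, 1.72%, 1.82% and 1.79% in the same order. In the plasma-positive library, with 112, 145, 161 and 185 cells, the Malat1 medians were 16.8%, 15.7%, 15.5% and 14.8% and the ribosomal protein medians 1.80%, 1.88%, 1.94% and 1.95%. Across these 4 ranges both measures thus stayed far nearer to each other than to the deep cells' medians. No mitochondrial UMI was seen in 85 and 52 shallow cells, and Malat1 took 17.9% and 18.4% of their summed UMIs.

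A few single cells carried large amounts of transcripts from outside microglia. Ttr, the thyroxine carrier that choroid plexus secretes, had 159 UMIs in 1 plasma-negative shallow cell, 28.2% of that cell's 563 UMIs. That cell showed 1 of the 11 microglia markers and no Malat1, and held all 5 shallow UMIs of Enpp2, another choroid plexus transcript. A plasma-positive cell held 177 of the 179 Ttr UMIs, 26.9% of its 658 UMIs, with none of the 11 markers and 13 Enpp2 UMIs. Deep cells had 1 and 38 Ttr UMIs in all, so the ratio that puts Ttr first among all genes rests on these 2 cells. Oxytocin and vasopressin (Avp) transcripts were concentrated likewise: 1 plasma-positive cell of 911 UMIs held 70 Oxt UMIs, another of 636 UMIs held 39 Avp UMIs, and 1 plasma-negative cell of 543 UMIs held 24. These 3 cells showed 7, 6 and 7 microglia markers.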

How the data were processed

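Sorted hypothalamic cells were profiled with the Chromium 3′ kit v3.1, per the labels' protocols, as 1 plasma-negative and 1 plasma-positive library. The authors deposited raw UMI counts per gene and cell for 31053 genes. The file headers name Cell Ranger 6.1.2 and the submitters' processing notes name Cell Ranger 3.0.1. Genome build, annotation, strand use and cell calling settings are not given in the sources used here. Cell barcodes were not used here, so barcodes shared by the libraries were not counted.

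Members and gene lists were chosen with earlier results of these data known. Counts were summed over shallow and deep cells of each library and expressed as CPM (counts per 1000000), with no pseudocount. Ratios carry exact conditional binomial intervals and shares Clopper-Pearson intervals at 95%. Calls are by size, at 1.5-fold in both libraries (2-fold between sorts), with no test because each sort had 1 library. Named genes were the 12 highest and 12 lowest ratios, the 8 highest and 5 lowest between sorts, each list's 2 most abundant and most extreme members, the marker with the most UMIs of each cell type list, Apoe, Cdkn1a and Malat1. Cells were thinned to 500 UMIs with a fixed seed. Doublets were kept. Scrublet in scanpy 1.11.5 called 0 cells automatically in either library, so its threshold had not worked, and an alternative removed the 778 and 859 highest-scoring cells, none of them shallow. Scripts used Python 3.11.15, numpy 2.4.6, scipy 1.17.1 and pandas 2.3.3, with edgeR 4.0.16 and DESeq2 1.42.0 (R 4.3.3) for scaling factors only, and were tested on simulated data. GENCODE M21 (GRCm38) matched 31011 identifiers.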

Additional observations from a re-analysis of the deposited data

Results flagged for a closer look

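Among the genes named for the highest or lowest ratios and the summed gene lists, 4 genes had opposite signs under the same contrast in the 2 libraries or the 2 depth classes, with both 95% counting intervals apart from 0. None of these differences was tested, since each sort had 1 library. Apoe had a log2 ratio of shallow over deep cells of -0.46 (-0.82 to -0.13) in the plasma-negative library and 0.16 (0.04 to 0.28) in the plasma-positive library. In the latter, 70 of its 596 shallow UMIs came from 1 cell. TMM factors moved every plasma-positive log2 ratio by -0.36 and median-of-ratios factors by -0.26. Both shifts are larger than 0.16, so the opposite sign of Apoe did not hold under either scaling. Sema4d, a semaphorin, had -0.48 in the plasma-negative and 0.46 in the plasma-positive library, from 53 and 78 shallow UMIs. Between sorts, Erlec1, a lectin of the endoplasmic reticulum, had a log2 ratio of plasma-positive over plasma-negative of 0.97 in shallow and -0.08 in deep cells. The non-coding gene Gm26870 had -1.29 in shallow and 0.54 in deep cells, and 31 of its 68 plasma-negative shallow UMIs came from 1 cell. Under a mitochondrial limit of 5% its ratio in shallow cells was 0.14, so the opposite sign did not hold there.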

How the results depend on the processing

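Over 20 alternatives, 16 planned and 4 added after seeing the data, 2954 values of 152 results were recomputed: 2705 stayed in place, 248 moved and 1 reversed. Of 1040 list medians, 39 moved. Against 597 genes higher and 591 lower, 50 CPM as the minimum gave 1037 and 897, 200 CPM gave 293 and 309, and no minimum gave 2862 and 1459, as more or fewer genes entered. TMM scaling gave 276 and 859, all 276 and 591 of the latter shared with the main calls, and median-of-ratios factors 336 and 789. Between sorts, the 4 genes higher and 4 lower in plasma-positive shallow cells became 40 and 38 with cells of fewer than 750 UMIs, 23 and 16 with shallow cells of at least 750 UMIs, 13 and 7 after thinning, 34 and 40 at 50 CPM, 1 and 0 at 200 CPM, 758 and 827 with no minimum, and 1 and 0 with cells of 500 to under 1500 UMIs. A mitochondrial limit of 5% gave 10 higher. The lower count was 2 without cells of fewer than 4 microglia markers, and 2 without each gene's highest cell. For these between-sort counts the cause was not tested. Gm26870 reversed to 0.14 under the 5% limit; the cause was not tested. Genes per cell at 500 UMIs in deep cells were 361 and 360 for cells of 2000 to under 4000 UMIs and 370 and 368 for deeper ones, and 355 and 357 in shallow cells without mitochondrial genes. No paired analysis was possible because 1 library stood for each sort, and so no replicate could be left out.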
